A study of Mus musculus with 10 samples.

Results

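The T cell receptor gene segments examined here are the 39 probe sets, of 34760 on the array, whose listed symbols include a segment of a T cell receptor locus. They were found by matching every listed symbol to the naming pattern of the alpha, beta, gamma and delta loci, and each probe set was kept separate. The alpha locus had 32 probe sets, the beta locus 2, the gamma locus 4 and the delta locus 1. Together they listed 27 symbols, of 20 V alpha, 2 V beta, 4 V gamma and 1 V delta segments, and none named a D, J or constant segment (0 of 39), so the results concern V segments alone. A probe set named 1 segment in 10 cases and several in 29. The pair Trav3n-3/Trav3-3 was listed for 19 probe sets and stood alone on 8, and 23 of the 32 alpha probe sets shared a sequence record of the annotation with another. The probe sets are therefore neither independent of each other nor, in most cases, specific to a single segment, and they are given below with their number on the array.

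RNA came from CD4 CD8 double-positive (DP) thymocytes sorted from the thymuses of individual mice aged 8 weeks, about 1000000 cells a mouse at over 98% purity, and was measured on 1 array a mouse. The groups were E2Aflox/flox HEBflox/flox Cd4-cre+ mice, lacking both E2A (gene Tcf3) and HEB (gene Tcf12) (DKO, n = 3), HEBflox/flox Cd4-cre+ mice (HEBKO, n = 2), E2Aflox/flox Cd4-cre+ mice (E2AKO, n = 2) and wild-type Cd4-cre+ mice (WT, n = 3). All groups, WT included, carried the Cd4-cre transgene, which is driven from Cd4 regulatory sequence and removes the floxed segment from about the DP stage on, in T lineage cells only. The number of arrays limits the precision.

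A T cell receptor chain is assembled by the recombinase RAG1/RAG2, which joins a V segment to a J segment (with a D segment between them in beta and delta), after which the promoter of the chosen V segment drives the transcript through to the constant region. Beta, gamma and delta segments are joined in double-negative thymocytes. The alpha locus opens in DP cells and joins V to J repeatedly, starting with V segments near the J cluster and moving outward, until the cell is selected or dies. Delta segments lie inside the alpha locus and are cut out by V alpha to J alpha joining. E2A and HEB are E proteins, basic helix-loop-helix factors that bind E-box sequences, which are found in the enhancers of these loci among many other places.

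The array medians ran from 92.6 to 98.6 intensity units and the correlation of log2 intensities between arrays, over all probe sets, from 0.971 to 0.992. Tcf3 lay at 8.93 to 9.29 (log2 intensity) in DKO, 10.02 to 10.06 in HEBKO, 9.12 to 9.23 in E2AKO and 9.63 to 9.85 in WT, and Tcf12 at 10.68 to 10.73, 11.15 to 11.48, 11.87 to 12.00 and 11.74 to 11.91 in the same order. Each targeted transcript was thus lower than in every WT array wherever its gene was floxed. Of the DP genes, Cd4, Cd8a, Cd8b1, Rag1, Rag2, Arpp21 and Cd1d1 lay above the 40th percentile on every array. However, 5 of these 7 were called lower in DKO than in WT, where 1.75% of all probe sets were. Genes of mature single-positive cells were higher in DKO, with values given beside the last results. Judged by Xist, each genotype held both sexes.

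One array stood apart at these loci. HEBKO 1 read 5.28 at the beta probe set Trbv13-2/Trbv1 (10537624), against 9.96 in HEBKO 2, a difference of -4.68 that only 3 of the 34760 probe sets exceeded, 2 of them naming Y-linked genes (HEBKO 1 was female and HEBKO 2 male). At the second beta probe set, Trbv1 (10537558), HEBKO 1 read 7.02 and HEBKO 2 read 10.68. HEBKO 1 lay below HEBKO 2 in 35 of the 39 receptor probe sets and in 28 of the 32 alpha ones, where 45.5% of all probe sets did so. What sets this array apart was not tested. Alpha medians in comparisons that involve HEBKO are given with and without HEBKO 1, while counts of non-overlapping arrays are given with all arrays. Without HEBKO 1, HEBKO 2 stands as a lone array that is assumed to vary like the other groups. The fit shares its spread among the groups, so the distance between both HEBKO arrays also widens the error of comparisons that do not involve HEBKO.

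Levels below are log2 intensities and differences are log2 differences with their standard error (SE) from a limma fit over all 10 arrays and all probe sets, and a probe set is called where the Benjamini-Hochberg adjusted p was under 0.05 over all 34760. The 3 knockout groups are set against the same WT arrays, so these comparisons are not independent.

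In mice lacking both E proteins, most of the V alpha probe sets read lower than in WT. Of the 32 alpha probe sets, 21 were called lower in DKO than in WT, 0 were called higher and 11 were not called, while 4.36% of all probe sets were called in this comparison (1.75% lower and 2.61% higher). Every alpha estimate was below 0 (32 of 32), with a median of -1.17 and a range of -2.54 to -0.07, where the median over all probe sets was -0.02. In 27 of 32 the DKO and WT arrays did not overlap, with DKO lower, where 10.2% of all probe sets had that order. Of the 21 called, 15 were called also without each single array in turn. The share of all called probe sets that kept their call in this way is not given. The 4 probe sets below the 40th percentile of every array (2 alpha and 2 gamma) are close to the dim end of the array, where differences are understated.

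The largest called fall was at probe set 10414950, which names Trav14-1 alone. It read 7.04, 7.79 and 7.24 in DKO, 7.28 and 8.11 in HEBKO, 9.88 and 10.63 in E2AKO and 9.25, 10.61 and 9.85 in WT. All DKO and HEBKO arrays lay below all E2AKO and WT arrays. The difference of DKO from WT was -2.54 ± 0.37 (SE, limma adjusted p = 0.00582), which leaves 17.1% of the WT level. Probe set 10414903, which names Trav16d-dv11 and Trav7d-6, showed the same separation with less scatter. Its levels were 7.71, 7.37 and 6.74 in DKO, 7.64 and 7.51 in HEBKO, 8.85 and 9.34 in E2AKO and 9.63, 9.64 and 9.26 in WT. It fell by 2.23 ± 0.24 in DKO against WT (limma adjusted p = 0.00126), to 21.2% of WT.

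Of the 8 probe sets that name the pair Trav3n-3/Trav3-3 alone, 10414909 and 10414926 had larger called falls than 10414903. Probe set 10414909 read 3.88, 3.42 and 3.57 in DKO, 4.62 and 5.49 in HEBKO, 6.89 and 7.13 in E2AKO and 5.34, 6.78 and 5.85 in WT, and was below the 40th percentile in 7 of the 10 arrays. It fell by 2.37 ± 0.35 in DKO against WT (limma adjusted p = 0.00582), a size that the dim levels can understate. Probe set 10414926 read 5.06, 6.20 and 5.53 in DKO, 5.86 and 7.01 in HEBKO, 8.32 and 8.39 in E2AKO and 7.66, 7.75 and 8.25 in WT. It fell by 2.29 ± 0.34 (limma adjusted p = 0.00617). In both, every DKO array lay below every E2AKO and WT array. HEBKO 2 lay among the WT arrays at 10414909, and HEBKO 1 among the DKO arrays at 10414926.

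The remaining 4 of the 8 largest called falls ran from 1.52 to 1.90 log2 units. Probe set 10414929, listed for Trav7-4, Trav7d-4 and the Trav3 pair, fell by 1.90 ± 0.28. Probe set 10414900 of the Trav3 pair fell by 1.87 ± 0.23. The smallest adjusted p of the locus was at probe set 10414885, listed for Trav14d-3-dv8, Trav14n-2 and the Trav3 pair, which read 7.84, 7.78 and 7.85 in DKO, 8.31 and 8.35 in HEBKO, 9.29 and 9.85 in E2AKO and 9.33, 9.79 and 9.67 in WT. It fell by 1.77 ± 0.16 in DKO (limma adjusted p = 0.000554), and its 4 genotypes were ordered DKO, HEBKO and then E2AKO beside WT, with no overlap between the first, the second and the rest. Probe set 10414734, which names Trav7d-4 alone, read 6.17, 6.40 and 6.33 in DKO, 6.50 and 7.10 in HEBKO, 8.05 and 8.08 in E2AKO and 7.51, 7.61 and 8.33 in WT, and fell by 1.52 ± 0.22 (limma adjusted p = 0.00559). These 8 probe sets kept their call in DKO against WT under every alternative run that retained them.

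**Figure D1:**
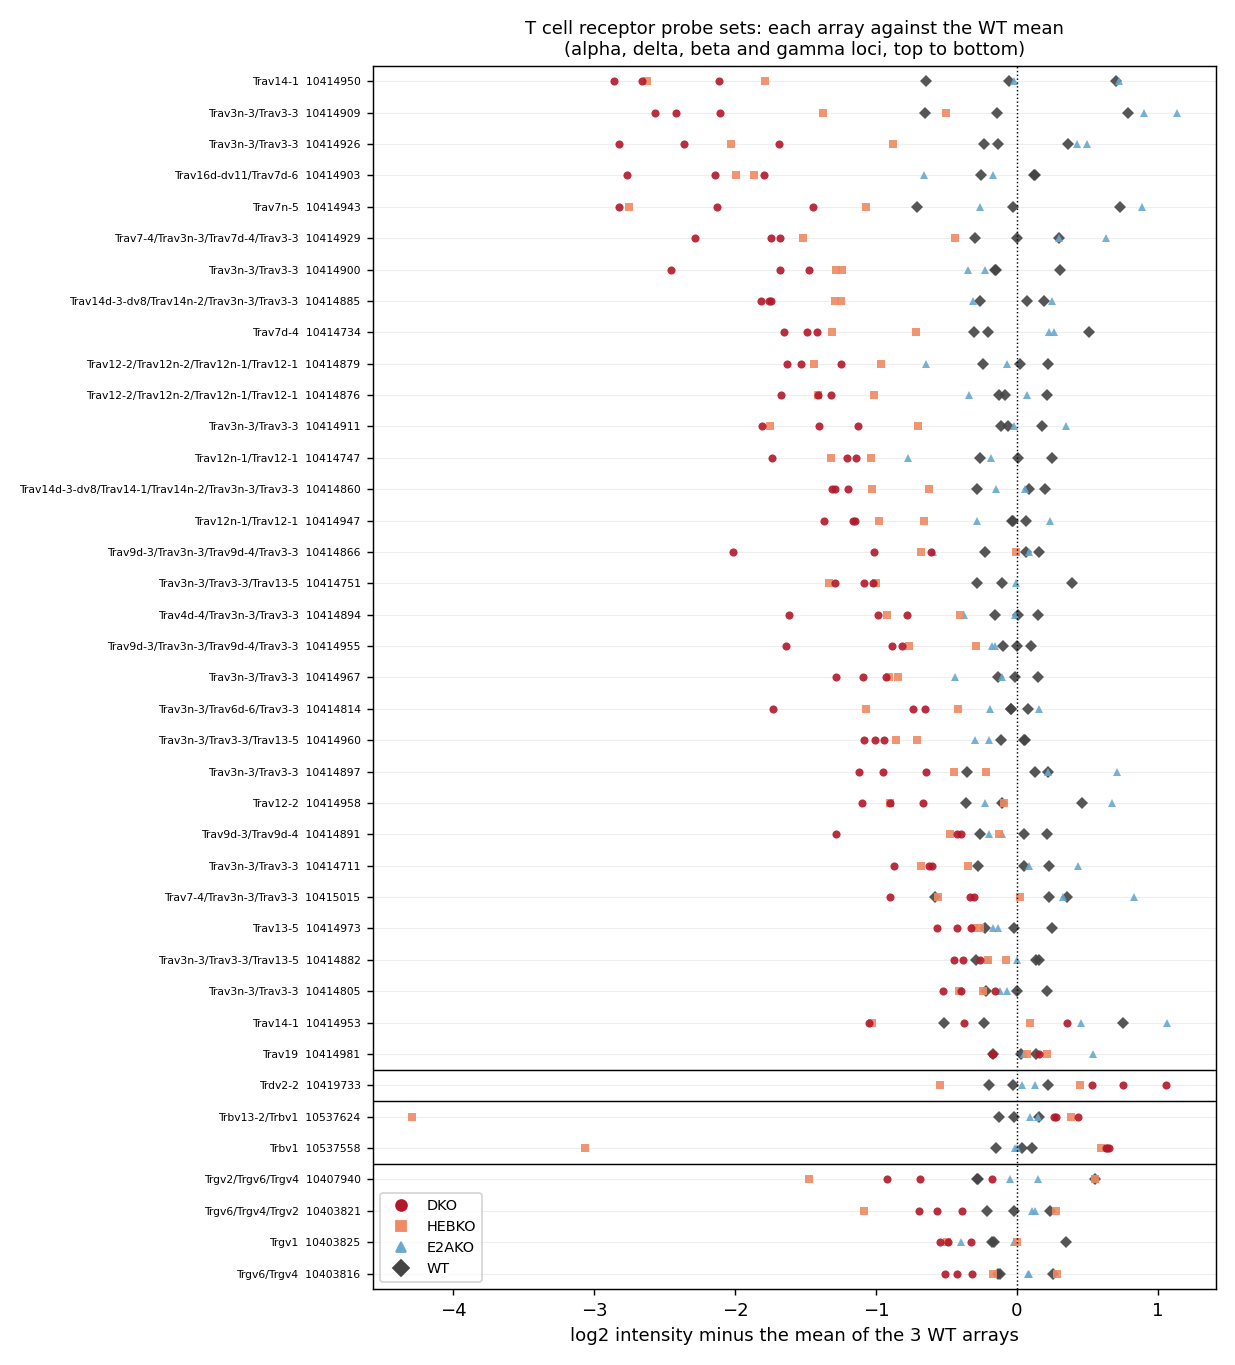
Log2 intensity of each of the 39 T cell receptor probe sets on each array, minus the mean of the 3 WT arrays (x axis), with probe sets of the alpha, delta, beta and gamma loci from top to bottom and ordered within a locus by the DKO minus WT difference. Points are arrays (DKO, HEBKO, E2AKO and WT by colour and shape); most alpha rows have DKO and HEBKO left of 0, and HEBKO 1 lies far left at the 2 beta probe sets, near -3 to -4 where the other arrays are near 0 or above.

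Grouped by V family, counting probe sets listed with the Trav3 pair under the other family they name, the falls were spread over families. In DKO against WT, where 1.75% of all probe sets were called lower, 4 of 5 Trav12 probe sets were called lower (median -1.36), 3 of 4 Trav14 (median -1.52), 2 of 4 Trav7 (median -1.71), 2 of 4 Trav13 (median -0.73) and 1 of 3 Trav9 (median -1.11). Of the 8 that name the Trav3 pair alone, 7 were called lower (median -1.27). Probe set 10414805 of this pair was not called, at -0.36 ± 0.13 (limma adjusted p = 0.216). It read 8.77, 8.53 and 8.40 in DKO and 8.93, 8.71 and 9.14 in WT, which overlap. The single Trav4 and Trav16d-dv11/Trav7d-6 probe sets were called and the single Trav6 and Trav19 ones were not. These medians describe the families and were not set against each other by a test, since many of these probe sets share segments and sequence records.

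Among the 11 alpha probe sets that were not called, the largest estimate was at Trav7n-5 (10414943). It read 6.09, 6.78 and 5.40 in DKO, 5.47 and 7.15 in HEBKO, 7.96 and 9.10 in E2AKO and 7.51, 8.95 and 8.19 in WT. The DKO arrays all lay below the WT arrays, but both groups were spread widely, and the difference of -2.13 ± 0.55 missed the threshold (limma adjusted p = 0.0668, 95% interval -3.37 to -0.89). It passed in 7 of 19 alternatives. Probe sets 10414866, listed for Trav9d-3, Trav9d-4 and the Trav3 pair (-1.21 ± 0.35), and 10414814, listed for Trav6d-6 and the Trav3 pair (-1.04 ± 0.28), were also lower in every DKO array than in every WT array without passing.

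Probe sets for the same segment did not always give the same answer. The second probe set that names Trav14-1 alone, 10414953, read 8.04, 8.72 and 9.44 in DKO, 8.06 and 9.18 in HEBKO, 9.54 and 10.16 in E2AKO and 8.57, 9.84 and 8.86 in WT. Its DKO, HEBKO and WT arrays overlapped, all DKO and HEBKO arrays lay below both E2AKO arrays, and the difference between DKO and WT was -0.36 ± 0.45 (limma adjusted p = 0.80), with a 95% interval of -1.37 to 0.66 that does not reach the estimate of -2.54 at 10414950. Both are annotated to the same gene, and which of the 2 reads Trav14-1 transcripts was not tested. Trav19 (10414981) differed least of the locus, at -0.07 ± 0.15 (95% interval -0.41 to 0.28), with 7.44, 7.77 and 7.43 in DKO, 7.69 and 7.82 in HEBKO, 7.66 and 8.15 in E2AKO and 7.64, 7.44 and 7.75 in WT.

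**Figure D2:**
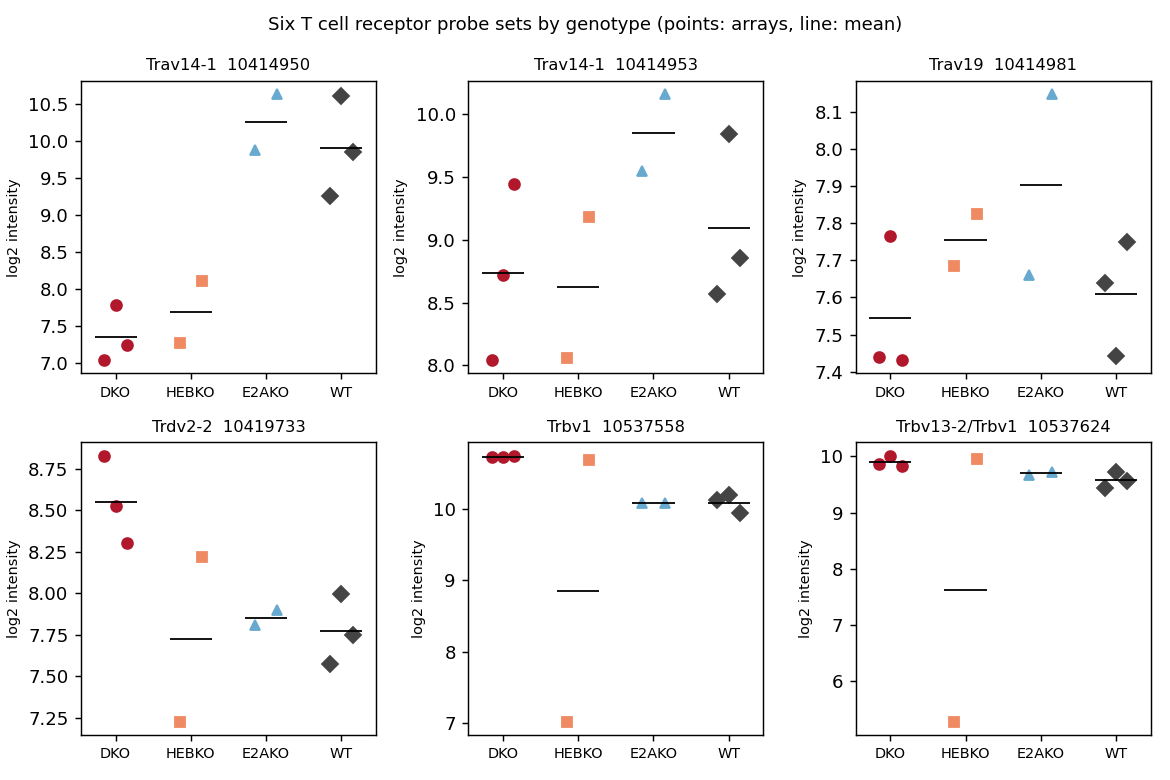
Log2 intensity (y axis, a separate scale in each panel) of 6 T cell receptor probe sets by genotype, DKO, HEBKO, E2AKO and WT from left to right, with arrays as points and group means as lines. Trav14-1 probe set 10414950 has DKO and HEBKO below E2AKO and WT, at probe set 10414953 of the same segment and at Trav19 the DKO and WT points overlap, and at both beta probe sets and Trdv2-2 HEBKO 1 is the lowest point.

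The V segments of the alpha and delta loci are laid out along 1 stretch of chromosome, with 136 V segments in the gene table, counted here from 1 at the end farthest from the J segments. The probe sets that name a single segment were placed on that order. Trav7d-4, at place 14, had a difference between DKO and WT of -1.52, Trav7n-5 at place 55 of -2.13, and Trav14-1 at place 98 of -2.54 and -0.36. Trav12-2 (10414958), at place 104, was at -0.89 ± 0.30 and dim on every array. Trav13-5 (10414973), at place 123, was at -0.44 ± 0.12 (limma adjusted p = 0.0951), and Trav19 at place 126 at -0.07. The V delta segment Trdv2-2, at place 132, was at 0.78. Spearman's rho between place and difference was 0.67 over the 7 alpha probe sets of 6 segments, and 0.46 over the 6 left without Trav19. These points share the locus and the arrays, so the coefficients are a description with no p. Trav12-2, Trav13-5, Trav19 and probe sets 10414953 and 10414805 were taken up after their values had been seen.

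**Figure D3:**
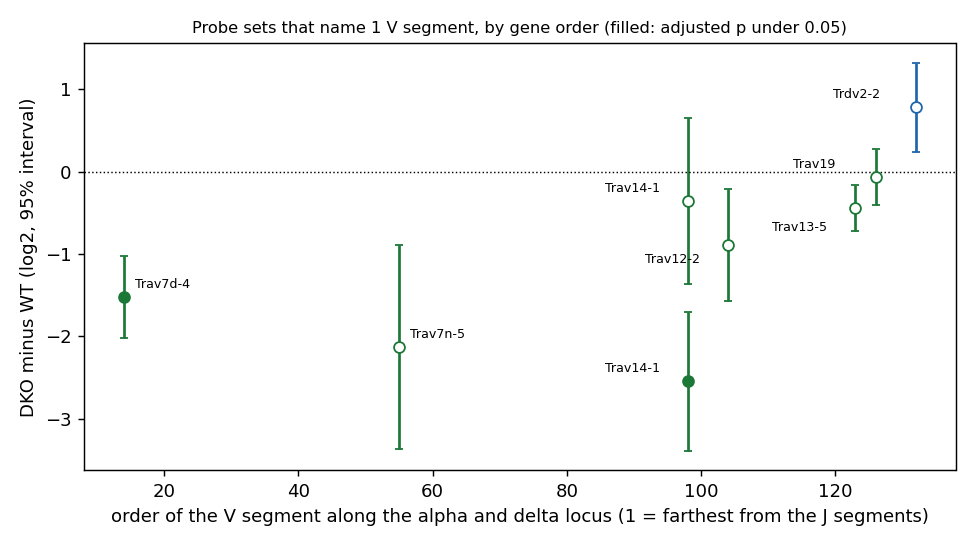
Difference of DKO from WT (log2, y axis, with 95% intervals from the fit) of the 8 alpha and delta probe sets that name 1 V segment, against the place of the segment among the 136 V segments of the joint alpha and delta locus (x axis, 1 = farthest from the J segments). Green points are alpha and the blue point delta, filled where called; the 2 points at place 98 are both Trav14-1, at -2.54 and -0.36.

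With HEB alone removed, the alpha estimates were lower too, but no probe set passed the test. The median over the 32 was -0.82, with a range of -2.21 to 0.14 and 31 below 0, against a median of -0.01 over all probe sets. In limma 0 of 39 were called in HEBKO against WT (smallest adjusted p = 0.0538), where 0.00863% of all probe sets were (3 of 34760). At an unadjusted p under 0.05 there were 21 receptor probe sets, all alpha, and 4066 probe sets in all. The arrays of both groups did not overlap, with HEBKO lower, in 23 of 32, where 12.1% of all probe sets had that order. Trav14-1 (10414950) was at -2.21 ± 0.42 (limma adjusted p = 0.126, 95% interval -3.15 to -1.27) and Trav16d-dv11/Trav7d-6 (10414903) at -1.93 ± 0.27 (adjusted p = 0.058). The lowest adjusted p was at probe set 10414960, listed for Trav13-5 and the Trav3 pair, with 8.39 and 8.54 in HEBKO against 9.31, 9.14 and 9.30 in WT (-0.78 ± 0.10). Set against the WT mean, the median alpha level was 49.9% in HEBKO 1 and 66.9% in HEBKO 2, so it was lower in the array that stands apart and below WT in both. Without HEBKO 1 the alpha median was -0.58 with 29 of 32 below 0, and 0 of 39 were called (smallest adjusted p = 0.345 in limma). Stricter filters on dim probe sets gave calls here, 3 with a filter at the 40th percentile and 5 at the 60th, all lower. The share of all probe sets called under these filters is not given.

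With E2A alone removed, the alpha probe sets lay around the WT level. Their median was -0.04 (range -0.51 to 1.02), 0 of 39 were called in limma, where 0.00% of all probe sets were, and 2 of 39 had an unadjusted p under 0.05 (1588 in all). The arrays did not overlap in 5 of 32, 3 with E2AKO lower and 2 with it higher, where 10.7% and 8.10% of all probe sets had those orders. The highest estimate was at probe set 10414909 of the Trav3 pair, with 6.89 and 7.13 in E2AKO against 5.34, 6.78 and 5.85 in WT (1.02 ± 0.39, limma adjusted p = 0.993, 95% interval 0.14 to 1.90). Array by array, the median deviation of the alpha probe sets was -0.15 and 0.12 in E2AKO and -0.09, -0.07 and 0.14 in WT.

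Between the knockouts, DKO was set against each single loss. Against E2AKO, 17 of 32 alpha probe sets were called lower and 0 higher, where 2.83% of all probe sets were called (1.36% lower and 1.46% higher), and the median was -1.11. In 31 of 32 every DKO array lay below both E2AKO arrays, where 15.3% of all probe sets had that order. The falls were largest at Trav3n-3/Trav3-3 probe set 10414909 (-3.39 ± 0.39, limma adjusted p = 0.0031), Trav14-1 probe set 10414950 (-2.90 ± 0.42), Trav3n-3/Trav3-3 probe set 10414926 (-2.75 ± 0.38), probe set 10414929 (-2.36 ± 0.32), Trav16d-dv11/Trav7d-6 probe set 10414903 (-1.82 ± 0.27) and Trav7d-4 (-1.77 ± 0.25). This count was smaller when either E2AKO array was left out, and the share of all probe sets called in those runs is not given. Of the 6 probe sets named, only 10414909 was called in every alternative run that retained it.

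Against HEBKO the further difference was smaller. The alpha median was -0.30 (range -1.43 to 0.11) with 30 of 32 below 0, and 0 of 39 were called in limma, where 0.549% of all probe sets were. Without HEBKO 1 the median was -0.55 (range -1.86 to -0.12) with 32 of 32 below 0, and still 0 of 39 were called (smallest adjusted p = 0.118 in limma). At an unadjusted p under 0.05 there were 12 receptor probe sets with all arrays, 8 of them alpha, where 9.96% of all probe sets were. Every DKO array was below both HEBKO arrays in 13 of 32, where 13.7% of all probe sets had that order. The largest estimate was -1.43 ± 0.39 at probe set 10414909 (limma adjusted p = 0.213), where all DKO and HEBKO arrays were below the 40th percentile, so its size is not measured. At probe set 10414929 the difference was -0.92 ± 0.32, and -1.46 ± 0.29 without HEBKO 1. At Trav14-1 (10414950) it was -0.34 with overlapping arrays, and -0.75 ± 0.51 without HEBKO 1. HEBKO against E2AKO gave 0 calls among the 39 and 0.00% over all probe sets, with 20 of 39 at an unadjusted p under 0.05 in limma (12.3% of all probe sets), an alpha median of -0.79 (-0.60 without HEBKO 1) and 26 of 32 with HEBKO lower in every array, where 19.8% of all probe sets had that order.

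The interaction DKO - HEBKO - E2AKO + WT measures how far the double loss departs from the sum of the single ones on the log2 scale. It was called in 0 of 39 receptor probe sets, where 0.0604% of all were called (0.00863% lower and 0.0518% higher), and 5 of 39 had an unadjusted p under 0.05 in limma, where 5.81% of all did. The alpha median was -0.39, and 25 of 32 estimates were below 0, that is, lower in DKO than the sum of both single differences. Without HEBKO 1 the median was -0.56 with 27 of 32 below 0, and again 0 of 39 were called. The largest was -2.45 ± 0.55 at probe set 10414909 (limma adjusted p = 0.316), the dim probe set that also had the highest E2AKO estimate. At 2 arrays in each single knockout the intervals are wide, here -3.69 to -1.21.

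**Figure D4:**
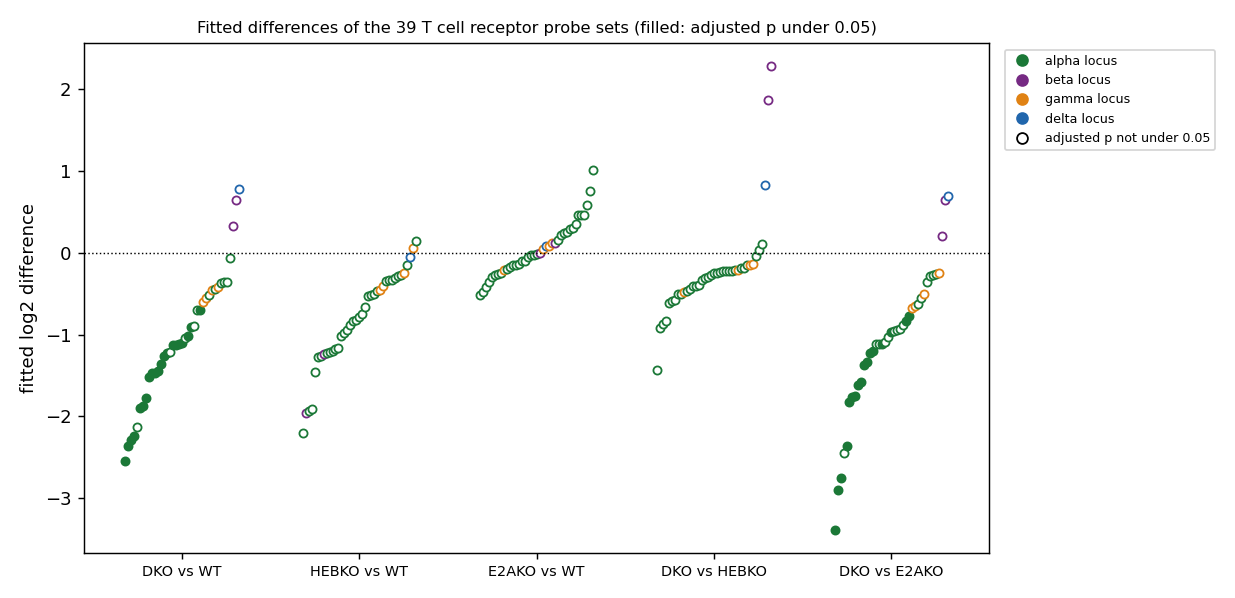
Fitted log2 differences (y axis) of the 39 T cell receptor probe sets in 5 comparisons (x axis), sorted within each comparison and coloured by locus, filled where the adjusted p was under 0.05. The 21 filled points in DKO vs WT and the 17 in DKO vs E2AKO are all alpha and all below 0, and the other comparisons shown have no filled point.

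The alpha probe sets were low in all 3 DKO arrays. Their median deviation was -1.47 in DKO 1, -1.06 in DKO 2 and -1.15 in DKO 3. DKO 1 was the lowest of the 10 arrays in 17 alpha probe sets, DKO 3 in 11, DKO 2 in 3 and HEBKO 1 in 1. The highest array was E2AKO 2 in 14, WT 3 in 10, WT 1 in 6, and E2AKO 1 and WT 2 in 1 each.

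The beta locus did not share the fall. Trbv1 (10537558) read 10.72, 10.72 and 10.74 in DKO, 7.02 and 10.68 in HEBKO, 10.07 and 10.09 in E2AKO and 10.12, 10.19 and 9.94 in WT. All DKO arrays and HEBKO 2 lay above all E2AKO and WT arrays, and HEBKO 1 far below every other array. DKO differed from WT by 0.64 ± 0.70 in the fit of all arrays (limma adjusted p = 0.759). Without HEBKO 1 the same difference had an error of 0.09 and was called (limma adjusted p = 0.00683), as it also was without HEBKO 2, since a lone HEBKO array adds no spread, and in a fit of DKO and WT alone (adjusted p = 0.0165). Against E2AKO, DKO was 0.65 ± 0.10 higher without HEBKO 1 (limma adjusted p = 0.0152). With all arrays HEBKO differed from WT by -1.23 ± 0.79 and was not called, while HEBKO 2 alone lay 0.60 above WT. DKO differed from HEBKO by 1.87 ± 0.79 with all arrays and by 0.04 ± 0.13 without HEBKO 1, neither called.

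The other beta probe set, Trbv13-2/Trbv1 (10537624), read 9.86, 10.01 and 9.84 in DKO, 5.28 and 9.96 in HEBKO, 9.67 and 9.73 in E2AKO and 9.45, 9.73 and 9.55 in WT. Its DKO arrays also lay above its WT arrays, by a smaller step, and HEBKO 1 again lay far below. The difference between DKO and WT was 0.33 ± 0.90, and 0.33 ± 0.10 without HEBKO 1 (limma adjusted p = 0.139), so it was not called either way. In both beta probe sets the groups DKO and WT did not overlap, with DKO higher, where 11.0% of all probe sets had that order. The 2 probe sets share the listed symbol Trbv1, so they may not be separate readings.

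The delta probe set, Trdv2-2 (10419733), read 8.83, 8.52 and 8.30 in DKO, 7.23 and 8.22 in HEBKO, 7.81 and 7.90 in E2AKO and 7.58, 7.99 and 7.75 in WT. Every DKO array lay above every other array, and HEBKO 1 was lowest. The difference between DKO and WT was 0.78 ± 0.24 and not called (limma adjusted p = 0.125, 95% interval 0.24 to 1.32). It was called without HEBKO 1 or without HEBKO 2 (0.78 ± 0.16, limma adjusted p = 0.0316) and with array weights (adjusted p = 0.0149). Without HEBKO 1, 2 of the 39 were called higher in DKO than in WT, Trbv1 and Trdv2-2, beside 21 lower, where 2.46% and 1.73% of all probe sets were.

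The gamma probe sets were low on the array and none was called in limma in any comparison (0 of 4), with 2 of 4 at an unadjusted p under 0.05 in DKO against WT, where 15.9% of all probe sets were. Trgv2/Trgv6/Trgv4 (10407940) read 6.21, 5.46 and 5.70 in DKO, 4.91 and 6.94 in HEBKO, 6.34 and 6.54 in E2AKO and 6.10, 6.94 and 6.11 in WT, with DKO and WT overlapping and a difference of -0.60 ± 0.46 between them, while every DKO array lay below both E2AKO arrays. Trgv6/Trgv4/Trgv2 (10403821) read 5.40, 5.27 and 5.58 in DKO, 4.88 and 6.25 in HEBKO, 6.10 and 6.07 in E2AKO and 6.20, 5.95 and 5.76 in WT. Here every DKO array was below every E2AKO and WT array, at -0.55 ± 0.29 against WT (limma adjusted p = 0.418, and 0.0604 without HEBKO 1). Trgv1 (10403825) was at -0.45 ± 0.18 and lay below the 40th percentile on all 10 arrays, as did Trgv6/Trgv4 (10403816). These 2 dim probe sets are the 2 with an unadjusted limma p under 0.05 in DKO against WT. In 3 of 4, the 2 dim ones among them, the DKO and WT arrays did not overlap, with DKO lower. Of all probe sets, 10.2% had that order. In HEBKO against WT the gamma median was -0.32 with all arrays and 0.28 without HEBKO 1. The probe sets other than Trgv1 all list Trgv6 and Trgv4, so they are not separate readings.

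The genes that join the segments were followed beside them. Of 14 genes of recombination and end joining, 13 had a probe set naming them alone. In DKO against WT 6 of these were called lower, 0 higher and 7 were not called (median -0.09). Over all probe sets, 1.75% were called lower and 2.61% higher. Rag2, the recombinase partner of RAG1, read 8.93, 9.33 and 8.47 in DKO, 9.93 and 10.80 in HEBKO, 10.97 and 10.93 in E2AKO and 10.81, 10.91 and 10.90 in WT. All DKO arrays were lowest, HEBKO 1 was next and HEBKO 2 lay beside WT. The called genes were Rag1 (-1.64), Rag2 (-1.96), the end-joining ligase gene Lig4 (-1.65), Dntt, whose product adds bases at the junctions (-0.99), Hmgb1, a DNA-bending cofactor of the recombinase (-0.73), and Xrcc6, which encodes the end-binding protein Ku70 (-0.60). Neither HEBKO nor E2AKO had a called gene in this list against WT (0 of 13 each in limma, with 3 in HEBKO and 0 in E2AKO at an unadjusted p under 0.05). Over all probe sets, 0.00863% were called in HEBKO and 0.00% in E2AKO. An unadjusted limma p under 0.05 was reached by 11.7% and 4.57% of all probe sets.

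Of the 5 genes of the chains that pair with the receptor, 1 was called lower in DKO than in WT, where 1.75% of all probe sets were. This was Cd247, the zeta chain (-0.69 ± 0.10, limma adjusted p = 0.00582). The others did not pass, with the CD3 genes Cd3g at -0.34, Cd3e at -0.27 and Cd3d at -0.10, and Ptcra, the partner of the beta chain before alpha is made, at -0.24. These 5 estimates are all smaller in size than the alpha median.

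Some lists of stage markers differed between DKO and WT and others did not. In HEBKO against WT, 0 genes of the DP, mature, double-negative and gamma-delta lists were called, where 0.00863% of all probe sets were. In DKO against WT, 2.61% of all probe sets were called higher and 1.75% lower. Of 5 mature single-positive genes on the array all 5 were called higher in DKO than in WT (median 2.65), among them Ccr7, a homing receptor, and Il7r. Their summed intensity was 2659 to 3900 in DKO, 530 to 1007 in HEBKO, 531 to 666 in E2AKO and 586 to 625 in WT. Of 7 DP genes, 5 were called lower in DKO, and their sum was 18822 to 22029 in DKO, 27224 to 36699 in HEBKO, 39049 to 39565 in E2AKO and 39295 to 41154 in WT. Rag1 and Rag2 are in this list and in the recombination list. In the double-negative list 2 of 6 were called higher in DKO, with a list median of 0.01 (summed intensity 1011 to 1381 in DKO, 573 to 636 in HEBKO, 606 to 620 in E2AKO and 583 to 658 in WT). None of the 8 gamma-delta genes was called (sum 537 to 610 in DKO, 564 to 699 in HEBKO, 527 to 552 in E2AKO and 551 to 646 in WT), and Il23r lay below the 40th percentile on every array. The part these markers play in the alpha, beta and delta values was not tested, and in bulk RNA fewer cells using a segment and less RNA per cell cannot be told apart.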

How the data were processed

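The values of 10 Affymetrix arrays were used. Per the submitters' processing notes, the authors processed the arrays with RMA (version not given in the sources used here). The deposited values are intensities on a linear scale, 1 per probe set, and log2 was taken with no added constant. Of 34760 probe sets, 21640 named 1 gene symbol, 1321 several and 11799 none. RMA puts the arrays on a common scale, so a shift shared by all transcripts would not be seen. RNA from 6 µg per sample was labelled, per the labels.

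All probe sets and all 10 arrays entered 1 linear model of genotype in limma 3.58.1 with R 4.3.3 (lmFit and eBayes, with 6 residual and 3.15 prior degrees of freedom). The contrasts given in the report were tested two-sided, with Benjamini-Hochberg adjustment over all probe sets within a contrast and a threshold of 0.05. No filter was used, so every T cell receptor probe set was tested; 35 of 39 would pass a filter at the 40th percentile in at least 2 arrays. The fit was tested on simulated data. Families and gene order came from symbols and a RefSeq gene table, which matched all 27 symbols. No coordinates are given, since the build of the array annotation is not given in the sources used here. A planned count of E-box motifs in promoters was not run, as the promoter table used has no entry for these segments.

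The probe sets, gene lists and tests were chosen with earlier results of these data known. Named were Tcf3 and Tcf12, in each locus the 8 largest called and 3 largest uncalled differences between DKO and WT, the 6 largest called in other contrasts, and the pathway lists. Pathway and marker genes were read from the probe set of highest mean among those naming the gene alone. Xist was used for sex. Alternatives were filters at the 40th and 60th percentiles, renewed quantile normalisation, a shift to 1 median, eBayes with trend and robust (statmod 1.5.0), a block for the replicate number, array weights, a fit of only those groups being compared, only probe sets with 1 symbol, each array left out, and a term for sex that was added after the data were seen.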

Additional observations from a re-analysis of the deposited data

How the results depend on the processing

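Counts of calls under alternatives are given here without the share of all probe sets called in the same run. They do not show whether a change was particular to the receptor probe sets. In DKO against WT, with 21 of 39 called, array weights gave 32 of 39 (1 of them higher) and the 10 probe sets naming 1 symbol held 2. In HEBKO against WT, with 0 called, renewed quantile normalisation gave 1, array weights 2, the replicate block 1, the 40th percentile filter 3 and that at the 60th percentile 5. In DKO against E2AKO, with 17 called, the probe sets naming 1 symbol left 2. In HEBKO against E2AKO, with 0 called, the replicate block gave 1. The alpha median of DKO against WT was -0.89 over the 7 probe sets naming 1 symbol, and the beta median of 0.48 was 0.64 with 1 symbol and 0.77 with a term for sex. The probe sets naming 1 symbol are fewer, and a smaller share of them was called in DKO against WT (2 of 10, against 21 of 39). The cause of these changes was not tested. Leaving out 1 array at a time gave 15 to 23 calls in DKO against WT (15 without WT 3), 0 to 2 in HEBKO against WT, 0 to 0 in E2AKO against WT, 0 to 2 in DKO against HEBKO, 4 to 18 in DKO against E2AKO, 0 to 2 in HEBKO against E2AKO and 0 to 2 in the interaction, with the counts of 2 all without HEBKO 2. The medians of DKO against WT ran from -1.28 to -1.11 in alpha, 0.44 to 0.55 in beta, -0.60 to -0.40 in gamma and 0.64 to 0.90 in delta. A lone array left in a group is assumed to vary like the other groups. With the replicate number as a block, 24 were called in DKO against WT, 21 in DKO against E2AKO and 0 in E2AKO against WT, DKO against HEBKO and the interaction. The labels give the numbers no shared origin. Same-numbered deviations correlated above 0 in 12 of 13 pairs and over 0.1 in 11 (range -0.06 to 0.40, and 0.40, 0.07 and 0.17 between DKO and WT), and 4 of 6 DKO and WT arrays correlated best with their own number. These pairs are not separate, since deviations from a group mean sum to 0. HEBKO and E2AKO, with 2 arrays each, thus gave the same 0.149 for both numbers. Not every pair passed 0.1, so the arrays were not treated as paired. This rule does not show that same-numbered arrays are unrelated. Judged by Xist, number 1 was female and number 2 male in DKO, HEBKO and E2AKO, and the reverse held in WT. Of the values of single named probe sets under alternatives, 404 kept direction and side of the threshold, 8 lost the call, 19 gained it and 0 reversed. Neither scaling moved the median of all probe sets by over 0.1 from -0.02. The filter at the 60th percentile left no gamma probe set, and the interaction was not run with only the groups compared. Dim probe sets, mainly gamma, limit how large a difference could be read.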
